A study of Homo sapiens with 4 samples.

Results

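SKM-1 cells derive from a human leukemia that followed a myelodysplastic syndrome (MDS), and their response to decitabine (DAC) was read from 2 of the 4 arrays in the data set, the one of cells given DAC and the one of cells given the solvent DMSO. Each array carried probe sets for 18132 annotated genes, of which 12714 lay above background on at least 1 of the 2 arrays and are called measured here. DAC was given at 1 μM in daily 24-h pulses and RNA was taken on day 5. Both cultures grew in the same serum-containing medium, with no added cytokine stated for this line. The other 2 arrays hold MDS-L, a human MDS line kept in IL-3, under the same treatments, and are set beside SKM-1 where they help. No condition was repeated, so no difference below has a replicate error or a test and every value speaks for this 1 line.

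DAC is a deoxycytidine analog. After phosphorylation in the cell it is built into DNA, where it traps DNA methyltransferases, so that methylation is lost as the cells divide. Loss of methylation is known to switch on genes that tumor cells and normal tissues keep silent, among them germline genes and endogenous retroviral repeats. Double-stranded RNA from such repeats is known to be seen by cytosolic sensors, which turn on interferons. Interferons act through receptors, JAK kinases and a factor complex that contains IRF9, which binds interferon-stimulated response elements (ISREs) ahead of antiviral genes.

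The promoters that follow belong to the antiviral genes at least 4-fold higher with DAC whose promoter window holds the ISRE core, and they are shown because interferon-stimulated effectors hold 9 of the 20 largest increases measured on both arrays. The core was searched as GAAA, any 2 bases and GAAA again, and on the other strand as TTTC, any 2 bases and TTTC, in windows that run from 250 bases before to 50 bases after a transcript start (RefSeq, GRCh38.p14). Each stretch is printed 5′ to 3′ on the strand of its gene with the cores in capitals, where overlapping cores form 1 run.
IFI27: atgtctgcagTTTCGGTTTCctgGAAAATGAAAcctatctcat
IFI44: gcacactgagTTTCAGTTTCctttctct
IFIT1: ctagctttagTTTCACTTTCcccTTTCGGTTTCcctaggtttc
IFI6: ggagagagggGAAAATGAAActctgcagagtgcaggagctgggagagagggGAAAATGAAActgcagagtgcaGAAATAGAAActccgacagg
BST2: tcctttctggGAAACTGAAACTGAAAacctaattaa
IFIT3: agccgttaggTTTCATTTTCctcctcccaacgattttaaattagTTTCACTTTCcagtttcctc
LGALS3BP: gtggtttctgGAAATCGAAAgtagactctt
RSAD2: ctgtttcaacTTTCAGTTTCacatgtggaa
ISG15: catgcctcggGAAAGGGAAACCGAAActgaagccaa
IFI44L: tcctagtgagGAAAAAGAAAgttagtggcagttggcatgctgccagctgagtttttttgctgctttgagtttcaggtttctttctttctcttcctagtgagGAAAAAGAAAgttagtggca
IFITM1: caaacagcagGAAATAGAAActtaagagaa
These stretches lie at chr14:94110618-94110660 (IFI27, plus strand), chr1:78649761-78649788 (IFI44, plus strand), chr10:89392497-89392539 (IFIT1, plus strand), chr1:27672266-27672358 (IFI6, minus strand), chr19:17405735-17405770 (BST2, minus strand), chr10:89327831-89327894 (IFIT3, plus strand), chr17:78979962-78979991 (LGALS3BP, minus strand), chr2:6877622-6877651 (RSAD2, plus strand), chr1:1013374-1013409 (ISG15, plus strand), chr1:78620274-78620394 (IFI44L, plus strand) and chr11:313990-314019 (IFITM1, plus strand). IFI6 had 3 cores, and IFI44L had 2 cores in 2 copies of a repeated stretch. Of 35116 windows, 3.57% held the core, and so did 404 of the 10373 measured genes with a window (3.89%). Among genes at least 2-fold higher with DAC it was found for 37 of 264 (14%), among those at least 4-fold higher for 14 of 26 (53.8%), and among those at least 2-fold lower for 5 of 154 (3.25%). Of the higher genes that are not on the list of interferon-stimulated effectors, 17 of 238 (7.14%) had one. A match describes the letters of the window and is neither a bound site nor a cause. The promoters of genes at least 4-fold higher had a median G and C content of 52.7%, against 64.3% over all measured genes.

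The values are log2 expression on PrimeView arrays, on which a set of short probes reads each transcript. The background level of each array was set by its 359 probe sets for olfactory receptors, which were assumed to be silent here. Their 90th percentile was 4.88 with DMSO and 5.07 with DAC. Lower values were raised to that level, so a difference from or to a raised value is a bound and is written "at least".

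Of the 12714 measured genes, 6774 had a difference (DAC minus DMSO) above 0, 5744 had one below 0, and the median was 0.04 on the log2 scale. The middle 50% of genes lay between -0.27 and 0.31. At least 2-fold higher were 345 genes, 2.71% of those measured, and at least 2-fold lower were 182, or 1.43%. Counting a gene when any of its probe sets above background passed, the balance turned to 436 higher and 563 lower. At 4-fold the split was 36 higher and 4 lower, and only IFI27, IFI44 and IFIT1 passed 16-fold. Genes were also binned by the higher of their 2 values. Under 6, 0.0883% were at least 2-fold higher, and at 12 or more 6.18% were. Raised background values leave little room for a 2-fold increase in the lowest bin. For 153 of the 174 higher genes with 2 or more probe sets above background, all of those probe sets pointed the same way, as they did for 107 of 128 lower genes. The differences of probe sets of 1 gene had a pooled standard deviation of 0.26, which leaves out the spread between cultures. In RNA from whole cultures, a change in the mix of cells and a change of RNA per cell cannot be told apart.

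**Figure D1:**
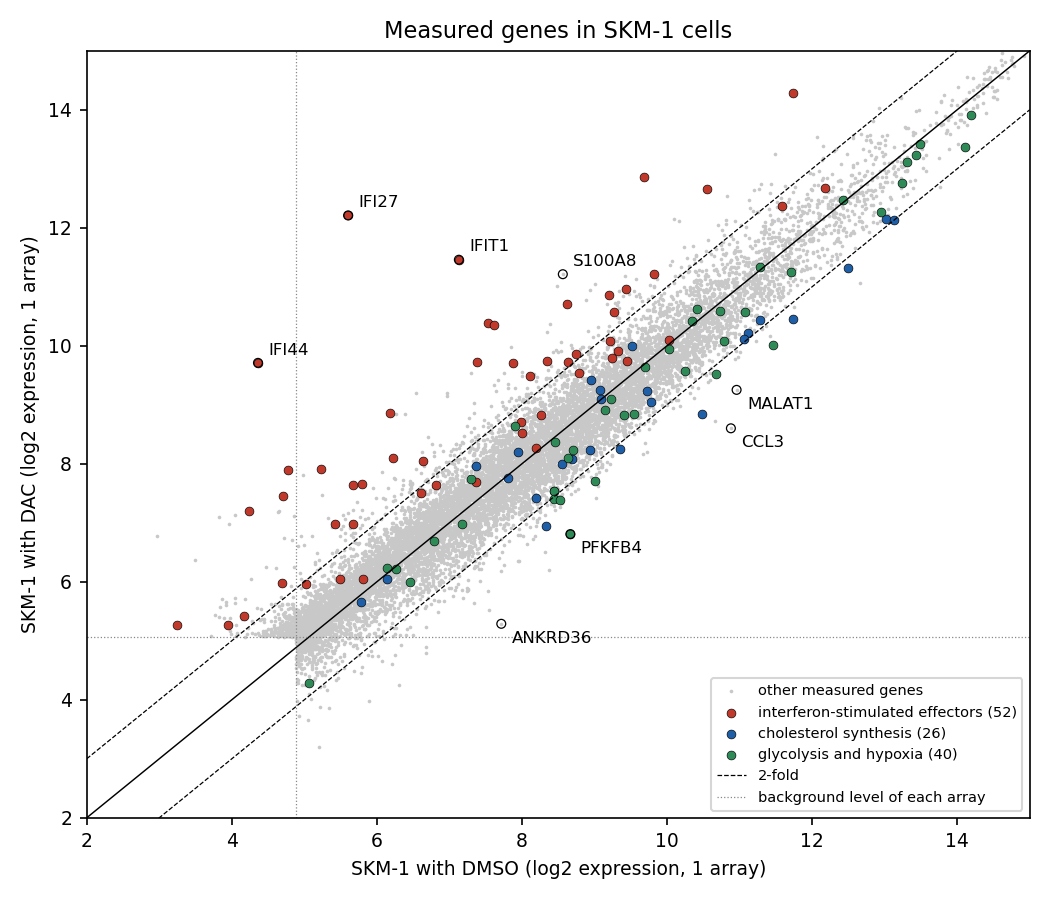
Log2 expression of the measured genes in SKM-1 with DMSO (x axis) and with DAC (y axis), 1 array each, as deposited and without raised values; points above the upper dashed line are at least 2-fold higher with DAC. Red marks the 52 measured interferon-stimulated effectors, all above the diagonal, and blue and green mark the cholesterol synthesis and the glycolysis and hypoxia lists, most of which lie below it.

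The label of the line was checked against markers. Of 11 myeloid markers on the array, 10 were measured, and these 10 ran from 3.77 to 11.30 with DMSO and from 5.44 to 11.93 with DAC. The granule enzyme MPO was at 10.01 with DMSO and 9.76 with DAC, lysozyme (LYZ) at 10.67 and 11.64, and the myeloid transcription factor CEBPA at 11.30 and 11.93. The monocyte marker CD14 lay under background on both arrays, and HLA-DRA did so with DMSO only. The summed linear signal of all 11 was 12.80 and 13.24 on the log2 scale. Of 5 T cell markers only CD3E was measured, at 5.42 on both arrays, and the chains CD3D and CD3G were under background. Of 4 B cell markers 3 were measured, with PAX5 at 8.94 and 9.42, CD79A at 6.56 and 6.64 and MS4A1 under background. The summed B cell signal was 9.37 with DMSO and 9.85 with DAC. Of 3 erythroid markers 2 were measured, with sums of 7.18 and 7.83, and of 5 megakaryocyte markers 3, with sums of 7.70 and 7.85. SKM-1 thus carried myeloid genes together with the B cell factor PAX5, and the part of these markers in the differences below was not tested.

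Interferon-stimulated effectors, the proteins that block virus entry, translation and replication, had the highest median of the 71 gene lists. All 52 measured members had a difference above 0, and 31 of them (against 2.71% of all measured genes) were at least 2-fold higher. Their median difference was 1.34 in SKM-1 and 0.40 in MDS-L. In MDS-L, 10 of 49 members were at least 2-fold higher, against 2.74% of all measured genes. The difference was larger in SKM-1 than in MDS-L for 43 of the 49 members measured in both lines. Of the 33 members with 2 or more probe sets above background, all probe sets were higher with DAC in 30.

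The largest difference was in IFI27, an interferon-induced protein of mitochondria, at 5.60 with DMSO and 12.21 with DAC, and its 2 probe sets differed by 5.25 and 6.61. IFI44 went from under background (4.36) to 9.71 and its neighbor IFI44L from 4.23 to 7.20, by 3 of 3 and 2 of 2 probe sets. IFI6, which restrains apoptosis, was at 9.69 and 12.86, and LGALS3BP, a secreted glycoprotein, at 5.23 and 7.91. IFI44L shows the core in its promoter in a repeat, as printed above, and IFI27 shows it on both strands.

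The next group acts on viral RNA and on translation. IFIT1, which binds viral RNA caps, was at 7.13 with DMSO and 11.46 with DAC. IFIT3, its partner in the same complex, was at 7.53 and 10.39, and IFIT2 was at 6.19 and 8.86, although its second probe set differed by 0.70 only. IFIT5, the fourth of these neighboring genes, was at 6.22 and 8.09, or 3.67-fold higher. The kinase EIF2AK2 (PKR), which stops translation when it meets double-stranded RNA, was at 8.64 and 9.72, or 2.11-fold higher. The nuclease ISG20 was at 5.67 and 6.98, or 2.48-fold higher, and SHFL, which acts on viral frameshifting, was at 8.11 and 9.48.

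Membrane and entry factors formed a further group. IFITM1, which blocks fusion of viruses with the cell membrane, was at 10.55 with DMSO and 12.65 with DAC, or 4.30-fold higher. IFITM3 was at 6.63 and 8.05, or 2.67-fold higher, whereas IFITM2 was at 12.18 and 12.68. BST2 (tetherin), which holds budding virions on the cell surface, went from under background (4.77) to 7.90 by all 3 of its probe sets. LY6E was at 8.61 and 10.71, or 4.26-fold higher, and the lectin SIGLEC1 went from under background (4.69) to 5.99. Viperin (RSAD2) and the neighboring kinase gene CMPK2 were at 4.70 and 7.45 and at 7.61 and 10.35. The 3 probe sets of CMPK2 differed by 0.01 to 2.75, so the size of its difference depends on the probe set.

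The ubiquitin-like modifier ISG15 was at 11.74 with DMSO and 14.29 with DAC. Its conjugating enzyme UBE2L6 was at 9.82 and 11.21, or 2.62-fold higher, whereas its ligase HERC5 was at 9.24 and 9.79. HERC6 was at 5.79 and 7.66, or 3.65-fold higher. The ADP-ribosyltransferase PARP9 and its partner DTX3L, which share a promoter, were at 8.75 and 9.87 and at 8.34 and 9.75, or 2.18-fold and 2.66-fold higher. The helicase DDX60 was 3.53-fold, IFI35 3.16-fold, HELZ2 2.93-fold, TRIM22 2.90-fold and the nuclear body protein SP110 2.44-fold higher. TRIM22 was higher by all 6 and SP110 by all 5 of their probe sets.

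Not every effector differed that much. GBP2, a guanylate-binding protein, was at 10.02 with DMSO and 10.10 with DAC, and ZC3HAV1 was at 8.20 and 8.27. MX1 was under background (3.95) with DMSO and at 5.27 with DAC, a difference of at least 0.39, while MX2 was at 7.38 and 9.73. GBP1 was likewise under background (3.24) with DMSO and at 5.26 with DAC. For MX1 and GBP1 the values give only a lower bound, so the size of their differences is not known.

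**Figure D2:**
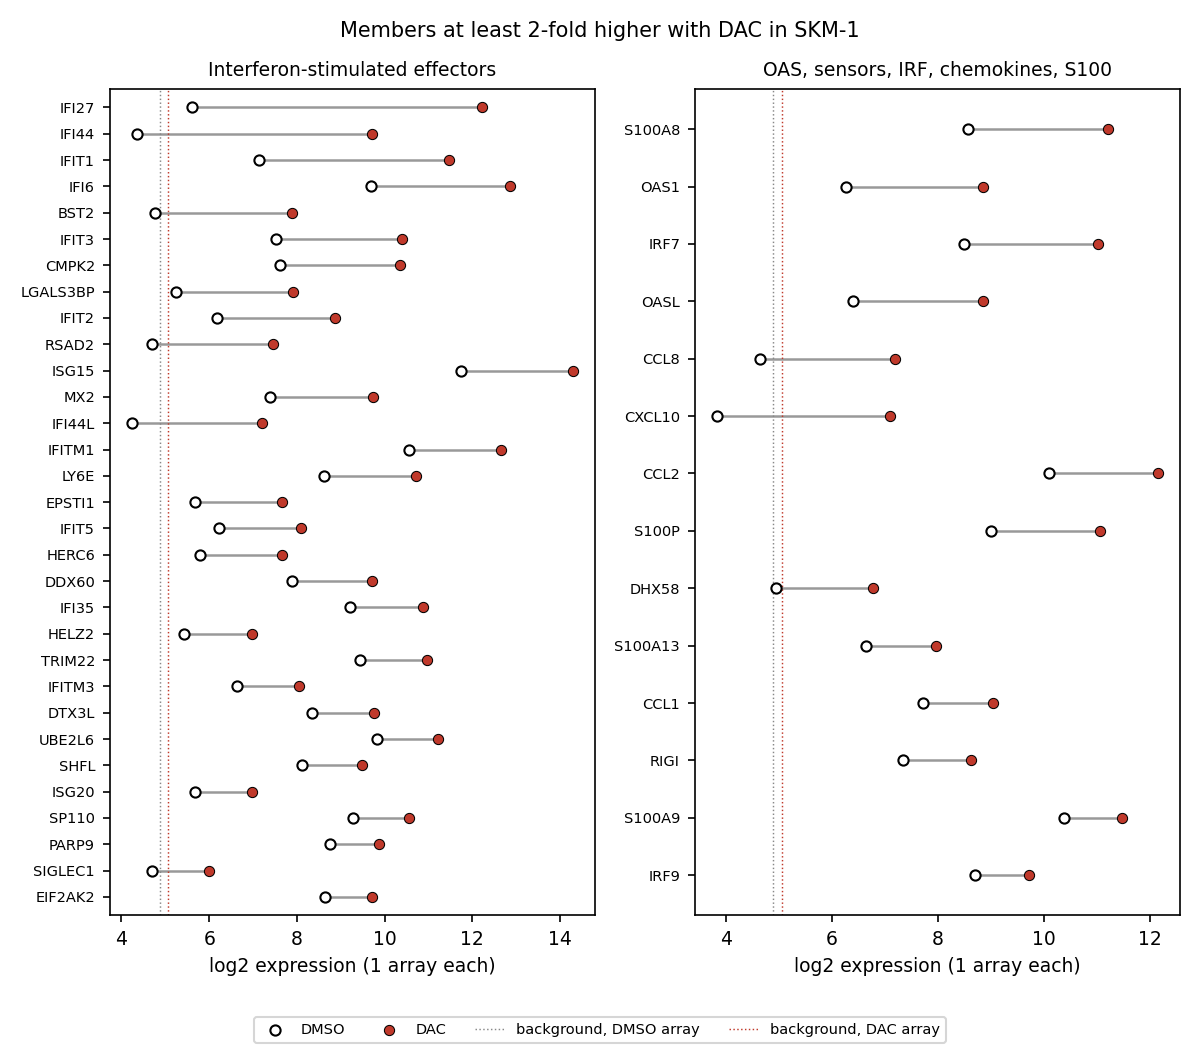
Log2 expression with DMSO (open circles) and with DAC (red circles) of list members at least 2-fold higher in SKM-1, 1 array each; dotted lines mark the background level of each array. On the left are the 31 effectors, from IFI27 (5.60 and 12.21) to EIF2AK2 (8.64 and 9.72). On the right are members of 5 related lists, of which CCL8 and CXCL10 start under background.

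The steps ahead of these effectors differed less. Of 11 interferons and interferon receptors on the array, 5 were measured and all 5 were receptor chains, with a median difference of -0.05. IFNAR1, a chain of the type I interferon receptor, was at 8.18 with DMSO and 7.61 with DAC by 4 of 4 probe sets, and IFNGR1, of the interferon gamma receptor, was at 9.32 and 8.55. The 6 others were under background on both arrays.

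Cytosolic sensors, which detect foreign or misplaced nucleic acids, had 18 measured members with a median of 0.40. DHX58 (LGP2) was at 4.95 with DMSO and 6.78 with DAC, or 3.55-fold higher, and RIGI, which senses RNA ends, was at 7.34 and 8.61, or 2.43-fold higher. IFIH1 (MDA5), the sensor of long double-stranded RNA, was at 8.71 and 9.66, and only 1 of its 2 probe sets pointed up. The DNA sensor IFI16 was at 6.61 and 7.50. In MDS-L the median of the sensors was 0.07.

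Oligoadenylate synthetases make the signal that activates RNase L. Of their list, OAS1 was at 6.26 with DMSO and 8.85 with DAC by 4 of 4 probe sets. OASL, a synthetase-like member, was at 6.39 and 8.84. OAS3 and OAS2 were 1.85-fold and 1.51-fold higher. ABCE1, an inhibitor of RNase L, was 1.65-fold lower, at 10.45 and 9.73.

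Among JAK kinases, STATs and IRFs, 2 of 14 passed 2-fold, both higher, against 2.71% of all measured genes. IRF7, the factor that amplifies type I interferon, was at 8.49 with DMSO and 11.02 with DAC, a difference of 2.53 against 0.77 in MDS-L. IRF9 was at 8.70 and 9.71, or 2.02-fold higher, by 4 of 4 probe sets. IRF3 was at 8.80 and 9.55 and IRF1 at 7.37 and 8.06. JAK1 was at 9.98 and 9.56. Among feedback inhibitors of cytokine signaling, SOCS5 was at 7.97 and 6.89, or 2.11-fold lower, and SOCS1 went from under background (4.35) to 5.55.

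HLA class I presentation, which shows peptides to T cells, had a median of 0.38 with 17 of 20 members above 0. The peptide transporter subunit TAP1, at 2.51-fold, was the 1 member at least 2-fold higher. Over all measured genes, 6774 of 12714 were above 0 and 2.71% at least 2-fold higher. The immunoproteasome subunits PSMB9 and PSMB10 were 1.88-fold and 1.85-fold higher, at 12.01 and 12.92 and at 10.64 and 11.53. HLA-E was at 11.52 and 12.43 by 6 of 6 probe sets. HLA class II presentation had a median of 0.22 and 0 of 13 members past 2-fold. That count is near the shares over all measured genes, 2.71% higher and 1.43% lower.

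**Figure D3:**
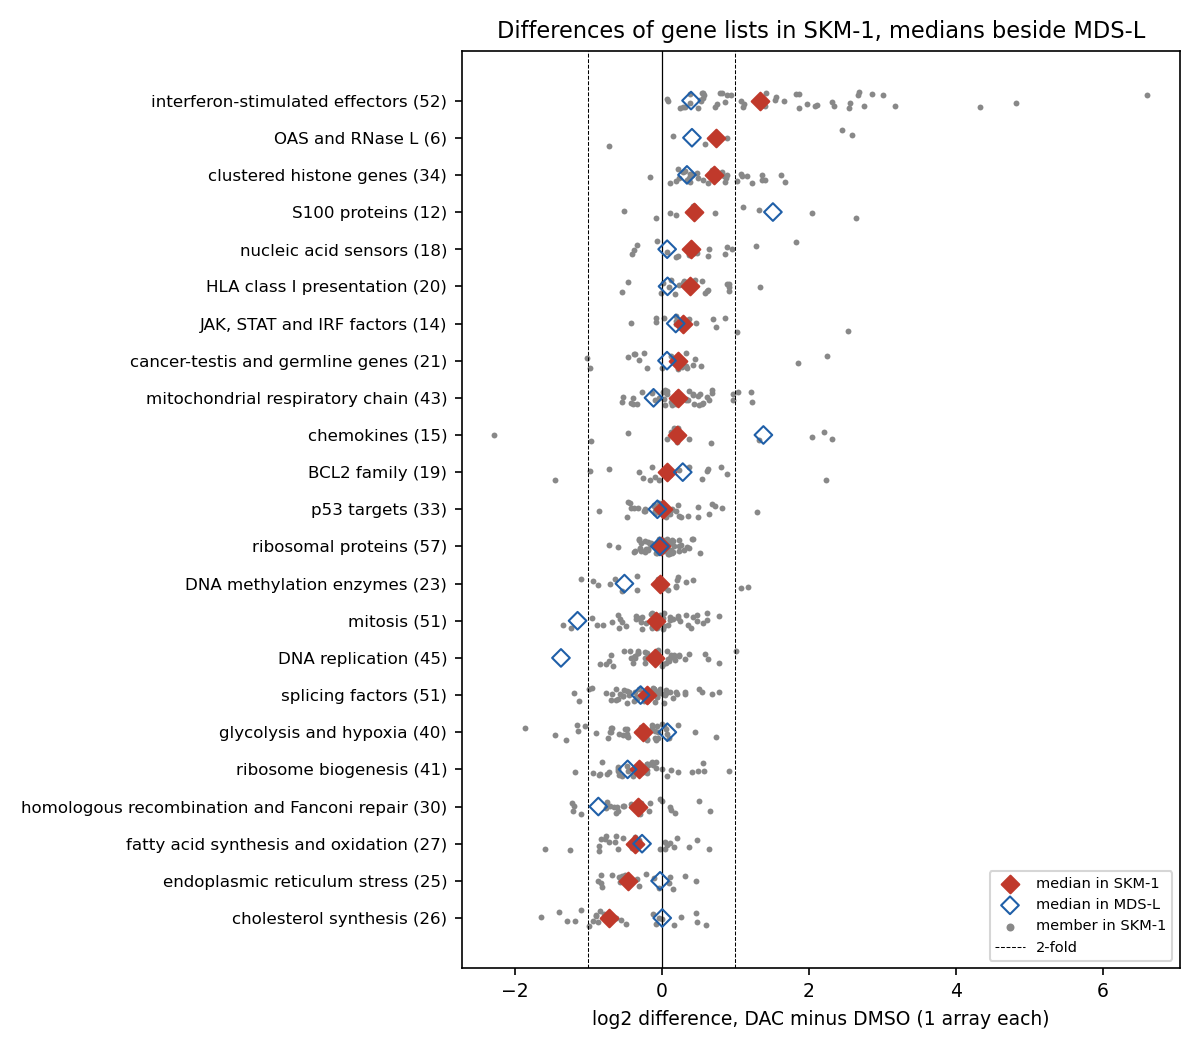
Log2 difference, DAC minus DMSO, of each measured member of 23 gene lists in SKM-1 (gray points, raised values where under background), with the median of each list in SKM-1 (filled red diamonds) and in MDS-L (open blue diamonds); numbers in brackets are members measured in SKM-1 and dashed lines mark 2-fold. The effector median is 1.34 in SKM-1, the cholesterol synthesis median is -0.71, and the medians of the lines lie far apart for DNA replication, mitosis, chemokines and S100 proteins.

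Chemokines, which attract leukocytes, went both ways. CCL2 was at 10.09 with DMSO and 12.14 with DAC, and CCL8 and CXCL10 went from under background (4.66 and 3.83) to 7.20 and 7.09. CCL1 was at 7.73 and 9.04. CCL3, in contrast, was at 10.88 and 8.60, and CCL20 was at 10.39 and 9.43. In MDS-L these last genes differed the other way, by 1.99 for CCL3 and 2.02 for CCL20. CCL5 was also lower in SKM-1, at 9.77 and 9.31, and higher in MDS-L by 1.11. The list median was 0.20 in SKM-1 and 1.38 in MDS-L, where 9 of 15 chemokines were at least 2-fold higher against 4 of 15 in SKM-1. The shares over all measured genes were 2.71% in SKM-1 and 2.74% in MDS-L.

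S100 proteins, small calcium-binding proteins of which S100A8 and S100A9 form the alarmin calprotectin, had a median of 0.44 in SKM-1 and 1.51 in MDS-L. S100A8 was at 8.56 with DMSO and 11.21 with DAC and S100A9 at 10.37 and 11.48, while S100P was at 9.01 and 11.05 and S100A13 at 6.65 and 7.97. These 4 of 12 members were at least 2-fold higher, against 2.71% of all genes. S100A16 was at 5.08 and 5.80, a difference of 0.72 against 3.74 in MDS-L.

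Of 17 measured caspase and inflammasome genes, 3 were at least 2-fold higher, against 2.71% of all genes, and 0 at least 2-fold lower. GSDMD, the pore protein that caspase-1 cuts in pyroptosis, was at 7.85 with DMSO and 9.99 with DAC by both probe sets. CASP1 was at 6.61 and 7.84 by all 7 probe sets, or 2.34-fold higher, and its neighbor CARD16 went from under background (3.49) to 6.37. NLRP3, the sensor of this pathway, was at 7.65 and 7.19. BCL2A1, a survival protein of the BCL2 family, was at 6.96 and 9.19, and TRADD, an adaptor of the TNF receptor, was 2.34-fold higher. TNFRSF10D, a decoy receptor for TRAIL, was at 7.34 and 5.65, but its other probe set did not point down.

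Toll-like receptor genes differed in both directions. At least 2-fold higher were 2 of 18, LY96 and CASP1, against 2.71% of all measured genes, and 0 were at least 2-fold lower. LY96 (MD-2), which binds lipopolysaccharide on TLR4, was at 6.54 with DMSO and 9.20 with DAC, a difference of 2.66 in SKM-1 and 2.21 in MDS-L. TLR4 itself was at 9.08 with DMSO and 8.20 with DAC by 3 of 3 probe sets, and TLR2 was at 8.32 and 7.58, whereas the adaptor MYD88 was at 8.55 and 9.34 by 4 of 4. The feedback genes IRAK3 and TNFAIP3 were 1.71-fold and 1.64-fold lower. In MDS-L, TLR4 and TLR2 differed by 0.40 and 0.62. Of the 5 measured immune hub genes that the study lists, S100A8, CXCL10 and S100A9 were at least 2-fold higher, while TLR4 and FOXO1 (7.38 and 6.94) were not. FOXO1 differed by -0.44 in SKM-1, with 2 of 2 probe sets pointing down, and by 0.95 in MDS-L. The hub list was chosen by the study on these arrays, so its count is no independent evidence of its direction. Of the study's 21 measured FOXO pathway genes, the kinase MAPK11 was at least 2-fold higher and BNIP3 and ATM at least 2-fold lower, against 2.71% and 1.43% of all genes. Of these 21 genes 15 were below 0, where 5744 of all 12714 were, and their median was -0.23.

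Lipid mediators were split as well. ALOX5AP, which hands arachidonic acid to 5-lipoxygenase, was at 9.17 with DMSO and 10.71 with DAC, and LTC4S, which makes leukotriene C4, was at 5.15 and 6.30. PTGES2, a prostaglandin E synthase, was at 8.80 and 9.95. PTGS2 (cyclooxygenase-2) was lower, at 7.05 and 5.76, and PLA2G4A, the phospholipase that frees arachidonic acid, was at 9.28 and 8.46.

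Clustered histone genes are transcribed during S phase and mostly lack poly-A tails. Of the 34 measured members 33 were above 0, where 6774 of all 12714 measured genes were. Their median was 0.71, against 0.34 in MDS-L. Of these, 10 were at least 2-fold higher, against 2.71% of all measured genes, and 0 were at least 2-fold lower. H4C8 was at 5.11 with DMSO and 6.78 with DAC, H2BC9 at 5.00 and 6.62, H2BC12 at 9.47 and 10.87 and the linker histone H1-5 at 5.83 and 7.06. H2BC11 and H4C5 went from under background to 6.25 and 6.24, and H2BC10, a histone outside the list, from 3.97 to 6.98. These genes are near copies of each other, so a probe set may read several of them. Of the 34 values, 15 come from probe sets that the array maker marks as shared, as do 4074 of all 12714. Of the 10 members at least 2-fold higher, 3 are read by such a probe set. Being near copies, the members remain uncertain as single genes.

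Cholesterol synthesis, which runs from acetyl-CoA through mevalonate and squalene and is controlled by the SREBP2 factor, was the list with the lowest median. Its 26 measured members had a median of -0.71, with 20 below 0, where 5744 of all 12714 measured genes were. Of the 26, 5 were at least 2-fold lower, against 1.43% of all measured genes. HMGCS1, which makes HMG-CoA, was at 10.48 with DMSO and 8.84 with DAC. SQLE, which oxidizes squalene, was at 12.50 and 11.31 by 4 of 4 probe sets, and DHCR7, which acts in the last steps, was at 9.35 and 8.25. The sterol sensor INSIG1, itself a target of the pathway's factor, was at 11.74 and 10.45, or 2.44-fold lower. STARD4, a cholesterol carrier, was at 8.33 and 6.94 by 5 of 5 probe sets, or 2.63-fold lower. FDPS, IDI1 and MSMO1 lay just short of 2-fold, at 13.13 and 12.13, at 11.05 and 10.12 and at 11.12 and 10.22. TM7SF2, a sterol reductase, went the other way, at 7.36 and 7.97. In MDS-L the median was 0.01, with 4 members at least 2-fold lower and 1 higher, against 3.24% and 2.74% of all measured genes.

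Fatty acid genes were lower to a lesser degree, with a median of -0.36. SCD, which makes monounsaturated fatty acids, was at 12.67 and 11.07 by 4 of 4 probe sets, and PLIN2, which coats lipid droplets, was at 11.42 and 10.16. The desaturases FADS2 and FADS1 were 1.82-fold and 1.81-fold lower, and ACSL4, which activates polyunsaturated fatty acids, was 1.77-fold lower by both probe sets. PLIN2 was higher in MDS-L, by 0.64.

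Genes of glycolysis and of the hypoxia response had 33 of 40 members below 0, where 5744 of all 12714 measured genes were. Their median was -0.26, against 0.08 in MDS-L. At least 2-fold lower were 6 members, against 1.43% of all measured genes. PFKFB4, which sets the level of an activator of glycolysis, was at 8.67 with DMSO and 6.81 with DAC by 4 of 4 probe sets. The mitophagy receptor BNIP3 was at 11.46 and 10.01, the histone demethylase KDM3A at 9.01 and 7.70, the collagen hydroxylase subunit P4HA1 at 10.67 and 9.52, the kinase PDK1, which shuts pyruvate out of mitochondria, at 8.53 and 7.39, and ANKRD37 at 8.44 and 7.40. LDHA was at 14.11 and 13.37. PFKL, a liver-type phosphofructokinase, was higher, at 7.91 and 8.64, as was PFKM.

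**Figure D4:**
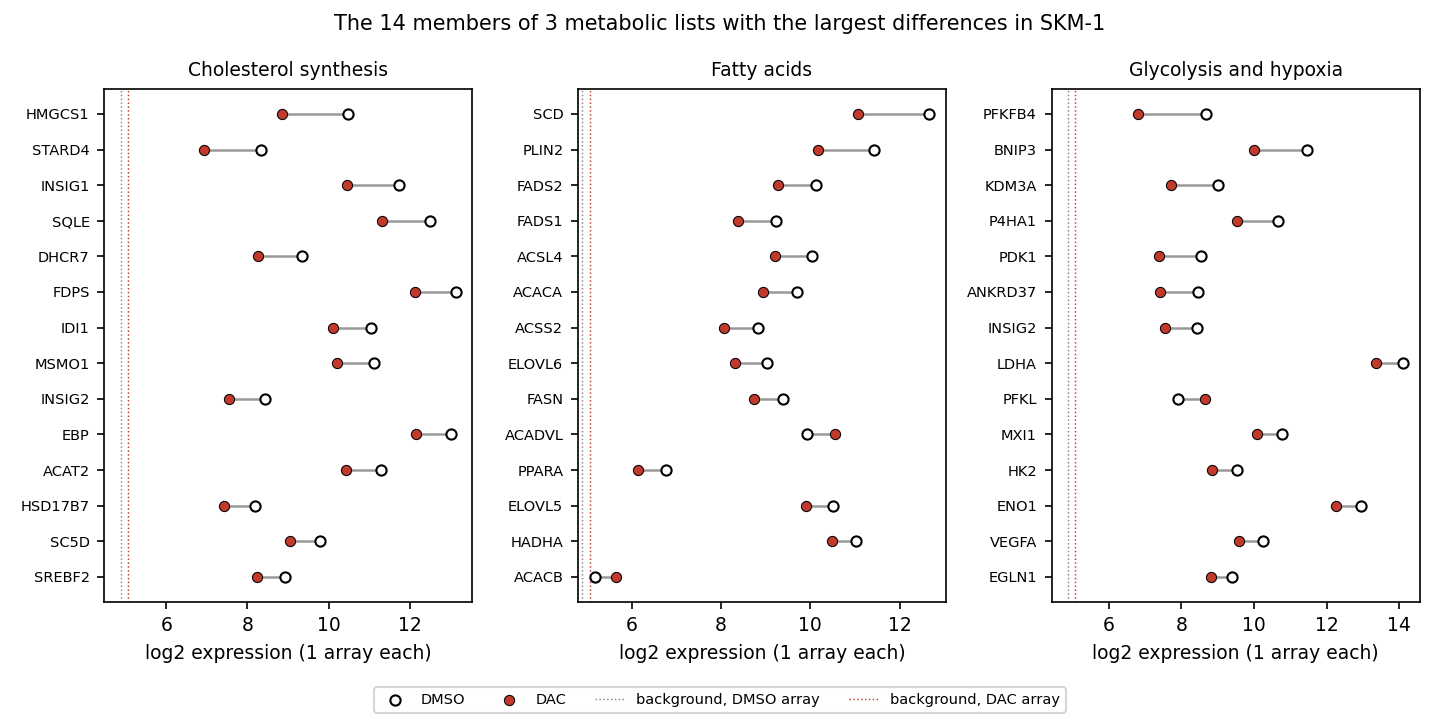
Log2 expression with DMSO (open circles) and with DAC (red circles) of the 14 members with the largest differences in the cholesterol, fatty acid and glycolysis and hypoxia lists of SKM-1, 1 array each; dotted lines mark the background level of each array. The DAC value lies to the left for all 14 cholesterol genes shown, while ACADVL, ACACB and PFKL have it to the right.

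Respiratory chain genes stood on the other side, with 33 of 43 members above 0, where 6774 of all 12714 measured genes were. Their median was 0.21 (-0.11 in MDS-L). NDUFS7, of complex I, was at 10.56 with DMSO and 11.79 with DAC, UQCRB, of complex III, at 10.75 and 11.97, and ATP5F1D, of ATP synthase, at 10.31 and 11.35, each by 3 of 3 probe sets. Not all subunits followed: ATP5F1A, also of ATP synthase, was at 13.23 and 12.68 by 4 of 4 probe sets.

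Chaperones of the endoplasmic reticulum had 20 of 25 members below 0, where 5744 of all 12714 measured genes were, and a median of -0.46. None reached 2-fold, where 1.43% of all measured genes were at least 2-fold lower. CANX was at 12.79 and 11.92 by 9 of 9 probe sets, HSP90B1 at 13.16 and 12.33 by 7 of 7, and HSPA5 (BiP) at 12.94 and 12.12 by 6 of 6. The median in MDS-L was -0.02.

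Proteins that protect from oxidation were mixed, with 3 of 32 at least 2-fold higher, against 2.71% of all genes. NQO1, a quinone reductase, was at 10.07 with DMSO and 11.44 with DAC by both probe sets. SELENOM was at 5.67 and 7.21. GSTP1, a glutathione transferase whose promoter is methylated in many cancers, was at 7.67 and 9.43 by one probe set, but its other probe set did not point up. Among metallothioneins, which are near copies of each other and so uncertain, MT1F was at 8.92 and 10.25.

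Among 23 measured enzymes and readers of DNA methylation, 2 were at least 2-fold higher and 1 lower, against 2.71% and 1.43% of all measured genes. Their median was -0.03. MBD3, a subunit of the NuRD complex, was at 8.98 with DMSO and 10.15 with DAC by 3 of 3 probe sets, and DNMT3L, a cofactor of the de novo methyltransferases, was at 5.46 and 6.53. ZBTB33 (Kaiso), which binds methylated DNA, was at 9.24 and 8.14. HELLS, a remodeler needed to keep methylation, was 1.46-fold lower in SKM-1 and differed by -2.44 in MDS-L.

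A list of genes of DAC uptake and of deoxynucleotide metabolism was close to the median of all genes, at 0.14 over 23 members. Not all of its members act on DAC itself. CMPK2, named above, and the nucleotidase NT5C, at 8.66 and 9.76, were the members past 2-fold. Both were higher, against 2.71% of all measured genes. SAMHD1, which breaks down deoxynucleotides including activated DAC, was at 9.75 and 10.61 by 4 of 4 probe sets. TK1 was at 10.14 and 10.87 in SKM-1, and differed by -1.24 in MDS-L.

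Cancer-testis and germline genes, which methylation normally keeps silent in body cells, were mostly not measured. Of 68 on the array, 47 were under background on both arrays. PAGE4 went from under background (4.04) to 7.14 and was at least 4.77-fold higher, and MAGEA4 from 4.72 to 6.74, at least 3.61-fold. LIN28B, an oncofetal RNA-binding protein, was lower, at 8.74 and 7.71. Imprinted genes had 0 of 16 members past 2-fold, a count near the shares over all measured genes, 2.71% higher and 1.43% lower. Of 22 measured genes often silenced by methylation in cancer, 18 had a difference above 0, where 6774 of all 12714 had. Only GSTP1 among these 22 was past 2-fold.

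Genes of DNA replication and mitosis stayed near the median of all genes in SKM-1. The 45 replication genes had a median of -0.09 with 1 at least 2-fold higher, against 2.71% of all measured genes. That member was POLD1, the catalytic subunit of polymerase delta, at 8.07 and 9.09. In MDS-L the same genes had a median of -1.37, and 31 of 45 were at least 2-fold lower, against 3.24% of all measured genes. The 51 mitosis genes had medians of -0.08 and -1.15, with 2 and 38 at least 2-fold lower, against 1.43% and 3.24% of all measured genes. CENPF, which sits at kinetochores, was at 9.70 with DMSO and 8.36 with DAC in SKM-1, while the mitotic kinases PLK1 and AURKB were 1.71-fold and 1.54-fold higher in SKM-1 and differed by -0.70 and -1.42 in MDS-L. The difference between the lines was not tested, since each has 1 array per treatment.

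Homologous recombination and Fanconi repair genes, which mend DNA breaks and crosslinks, were lower, with 24 of 30 below 0, a median of -0.33 and 4 at least 2-fold lower, where 5744 of all 12714 genes were below 0 and 1.43% at least 2-fold lower. FANCM, a helicase that detects crosslinks, was at 7.08 with DMSO and 5.86 with DAC, and the nuclease FAN1 was at 6.31 and 5.10. The kinase ATM was at 8.68 and 7.49, with 3 of 4 probe sets pointing down. NPAT, which lies beside ATM and shares its promoter region, is also among the genes at least 2-fold lower. In base excision repair, SMUG1, which removes uracil, was at 7.58 and 8.58 and MPG at 9.91 and 10.86. The CDK inhibitor CDKN1A was at 9.52 and 10.34, and the p53 target list as a whole had a median of 0.01.

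RNA processing genes leaned lower. Splicing factors had 36 of 51 members below 0 and ribosome biogenesis 32 of 41, where 5744 of all 12714 measured genes were below 0. Among the splicing factors, PRPF38B was at 9.02 and 7.82 and PRPF3 at 9.10 and 7.98. Ribosomal proteins themselves were even, with 28 above and 29 below 0 and none past 2-fold. MALAT1, a nuclear noncoding RNA tied to splicing, was at 10.96 and 9.25 by both probe sets. The chromatin remodeler ATRX was 2.39-fold lower.

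Among regulators of blood cell identity, ID1 and ID2, which block basic helix-loop-helix factors, were 3.73-fold and 2.26-fold higher by all of their probe sets, with ID1 at 8.88 and 10.78. IKZF2 (Helios) was at 8.40 and 7.32, and MYB, a factor of immature blood cells, was at 11.60 and 10.84. The costimulatory ligand CD86 went from under background (4.83) to 6.71, and LGALS9 was at 7.96 and 9.13. TNF was at 5.38 and 6.94, and LTB, its neighbor in the genome, at 6.96 and 9.15. STAP1, a signaling adaptor best known from B cells, was at 4.98 and 7.81 by both probe sets. The transferrin receptor TFRC was at 13.77 and 12.69 by 3 of 3 probe sets.

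Most genes past 2-fold are on none of the 71 lists, which cover 100 of the 345 higher and 36 of the 182 lower genes. Among the largest differences outside the lists, HACL2, an enzyme of fatty acid breakdown, was at 7.30 with DMSO and 9.53 with DAC, CD52, a surface antigen of lymphocytes and monocytes, at 5.24 and 7.47, and PKIB, an inhibitor of protein kinase A, went from 4.86 to 7.11. On the lower side, ANKRD36 was at 7.72 and 5.29 and GOLGA8A at 8.32 and 6.51, both members of families of near copies and so uncertain. The organic anion transporter SLCO4C1 was at 8.37 and 6.20, the neuronal membrane protein SLITRK4 at 10.67 and 8.72, the transcriptional corepressor LCOR at 7.53 and 5.84, and OGT, which puts O-GlcNAc on proteins, at 9.02 and 7.43 with 3 of 4 probe sets pointing down. WDR35 and DYNC2H1, which carry cargo back along cilia, were at 7.96 and 6.35 and at 7.94 and 6.34. PLAU (urokinase) was at 7.71 and 6.18, and HOOK1 went from 6.68 to under background.

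Some of the higher genes lie side by side. In the order of measured genes along RefSeq, 53 of the 345 higher genes fell into 24 runs of neighbors, and 14 of the 182 lower genes into 7 runs. How many runs as many genes at random places would form was not tested. The longest run was IFIT2, IFIT3, IFIT1 and IFIT5. Others were S100A9 with S100A8, IFI44L with IFI44, IFITM1 with IFITM3, CMPK2 with RSAD2, CCL2 with CCL8 and CCL1, CASP1 with CARD16, TNF with LTB, and HCST with TYROBP, the genes for DAP10 and DAP12, adaptors of activating receptors. TYROBP was at 8.35 and 10.23, or 3.68-fold higher. TYMP, which breaks down thymidine and lies beside SCO2 in another run, was at 8.39 and 10.36.

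The genes past 2-fold in SKM-1 were looked up in MDS-L. Of the 345 higher genes, 327 were measured in MDS-L, where 237 had a difference above 0 (72.5%, against 51% of all) and 46 (14.1%, against 2.74% of all) were at least 2-fold higher. Their median in MDS-L was 0.21. Of the 182 lower genes, 157 were measured in MDS-L, where 109 had a difference below 0 (5697 of all 12017 did) and 19 (12.1%, against 3.24% of all) were at least 2-fold lower. Seen from MDS-L, the 46 shared higher genes are 14% of its 329 higher genes measured in both lines, and the 19 shared lower genes are 4.88% of its 389 lower genes. Each line has its own DMSO array. Spiked-in controls were also higher with DAC in both lines, as given next.

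The RNA added to each sample as a control was not level between the 2 SKM-1 arrays. The 24 probe sets for the poly-A spikes (lys, phe, thr and dap), bacterial transcripts put in before labeling, had a median of 6.02 with DMSO and 8.82 with DAC, a difference of 2.78 (2.43 to 3.18), or 6.85-fold. In MDS-L it was 1.37. The 18 probe sets for the hybridization spikes, added after labeling, differed by 0.94, and by 0.86 in MDS-L. Background probes with 19 to 25 G and C bases differed by 0.40, and those with 3 to 12 by 0.05. The 28S ribosomal RNA controls differed by 0.91. For ACTB, 3′ minus 5′ probe sets gave 1.78 with DMSO and 1.72 with DAC, and for GAPDH -0.06 and 0.27. Lowered by the difference of the poly-A spikes, a setting added after seeing the data, 3 genes would count as at least 2-fold higher and 12664 as lower. The part of these differences between the arrays in the differences of genes was not tested.

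**Figure D5:**
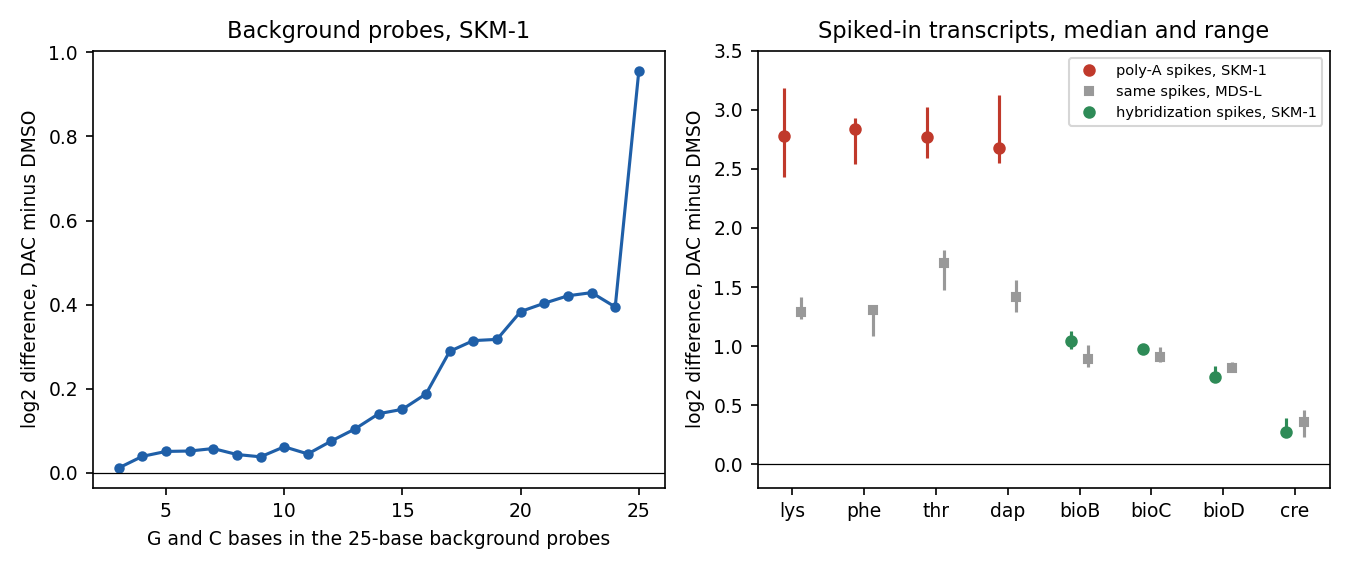
Log2 difference, DAC minus DMSO, of control probes in 1 pair of arrays per line. Left, background probes of SKM-1 by their number of G and C bases, from near 0 at 3 to 0.96 at 25; right, median and range over the probe sets of each spiked-in transcript in SKM-1 (colored) and MDS-L (gray), with all poly-A spikes of SKM-1 above 2.43.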

How the data were processed

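RNA of MDS-L and SKM-1 cells was hybridized to 4 PrimeView arrays, 1 per cell line and treatment, as the labels give them. The authors deposited 1 log2 expression value per probe set and array for 49395 probe sets. The methods name RMA in Partek Genomics Suite and the RNeasy system, whereas the submitters' processing notes name MAS5 and the labels Trizol. RMA gives all arrays a like distribution, so a shift shared by all genes is removed. Values were used as deposited.

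Of the probe sets, 44994 have 1 gene symbol in the array annotation, 1832 have several and 2569 are not listed, and the latter 2 kinds were left out. Where several probe sets read 1 of the 18132 genes, the one with the highest average over all 4 arrays stood for it. The background level was the 90th percentile of 359 olfactory receptor probe sets per array. With 1 array per condition, no p-value can be had, genes past 2-fold were counted, and the precision is limited by the number of arrays. A raised difference against the direction of its bound was set to 0. Promoter windows came from RefSeq (GRCh38.p14), with any window of a gene counting. Python 3.11.15, numpy 2.4.6, pandas 2.3.3 and matplotlib 3.10.9 were used, and the counting was tested on simulated data.

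Names were drawn from the 20 largest increases and the 20 largest decreases measured on both arrays, the 15 largest bounds in each direction, list members at least 2-fold different or among the 6 largest differences of a list, members of the study's FOXO and hub lists, and the lineage markers, and not every gene of these sets is printed. IFITM2, HERC5, GBP1, GBP2, MX1, ZC3HAV1, JAK1, TNFAIP3, CCL5, MYB, HELLS, AURKB, IDI1, MSMO1, TM7SF2, LDHA, PFKL, PFKM, ACADVL, ACACB, ATP5F1A, NPAT, HCST, TYROBP, SCO2 and TYMP were chosen after their values were seen. The members, the gene lists and the tests were chosen with earlier results of these data known. Alternatives were other fold thresholds, background levels, normalizations and choices of probe set, and for the promoters a longer core and a 3-fold threshold.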

Additional observations from a re-analysis of the deposited data

Results flagged for a closer look

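Spiked-in controls and background probes, which no comparison of genes uses, stood above 0 in the difference between the SKM-1 arrays. The poly-A spikes were 2.78 (log2) higher with DAC, the hybridization spikes 0.94 higher, and the background probes with 19 to 25 G and C bases 0.40 higher. In MDS-L the same values were 1.37, 0.86 and 0.35. Only 3 measured genes of SKM-1 (IFI27, IFI44 and IFIT1) had a difference at least 2-fold larger than that of the poly-A spikes, as an alternative added after seeing the data counts it.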

How the results depend on the processing

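Each value rests on 1 array, so no replicate could be left out. No paired analysis was possible because each condition has 1 array. At 1.5-fold, 1227 genes were higher and 1163 lower, and at 3-fold 68 and 17. With the background raised to the 99th percentile of these probe sets for olfactory receptors, 121 genes of 9283 were lower. When any probe set above background could count, 563 genes were lower and 436 higher, so the balance turned. Lowering all differences by that of the poly-A spikes, added after seeing the data, left 3 higher and 12664 lower genes. Centring on the median gave 302 and 214, quantile normalization 402 and 144, and leaving out probe sets shared between genes 293 and 226. The share of higher genes with the ISRE core (14%, 95% Wilson interval 10.3 to 18.7, counting error only) was 7.95% with the core required to be followed by C and 35.3% at 3-fold. Over all measured genes with a window, 3.89% held the core and 1.05% the core followed by C.

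Over 9 other settings, 630 of 639 values of list medians stayed within 0.26 of the value reported. That bar is the standard deviation between probe sets of 1 gene, so it is wide for the median of a list. Centring moves every median by 0.04 and could not pass it. Medians within 0.26 of 0 could not be recorded as reversed. The median of chemokine receptors went from 0.28 to -0.043 with the 99th percentile, and that of erythroid markers from 0.60 to -0.20 with it and to -0.13 with each array's median as background. A change of sign was looked for only in the 164 named genes past 2-fold, and none was found. Over all 448 named genes, 283 of 3859 values moved by at least 0.26. All 164 named genes past 2-fold remained so with no raised values, a setting that can only enlarge such differences and so could not drop any. With the 99th percentile, 115 of the 148 still measured remained past 2-fold. Signals near background limit what can be seen in 5418 genes under it on both arrays.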
